A study of Mus musculus with 6 samples.

Results

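Satellite cells are the resident stem cells of skeletal muscle, and 9 genes that mark them or tie them to their niche were followed here: Pax7, Pax3, Calcr, Chrdl2, Megf10, Spry1, Sdc4, Vcam1 and Ncam1. They were taken by gene symbol from a table of 52369 genes, and each was found under a single Ensembl identifier. The rule names genes and uses no measured value, but the genes were chosen with earlier results of these data known. The data are RNA sequencing libraries of whole tibialis anterior muscle from C57BL/6 mice. The 3 libraries of the group called L7 are labelled as overexpressing the long non-coding RNA Linc-smad7, and the 3 Control libraries are labelled control. Both groups were injured at 5 weeks of age by injection of cardiotoxin (50 µl at 10 µM), a component of cobra venom that kills the fibres but spares the satellite cells, which then rebuild them. Both then received 6.25 µg of the expression plasmid pcDNA3.1, mixed with an in vivo transfection reagent in glucose, in several injections of which the last was on day 4. The muscle was taken on day 7, at a labelled age of 6 weeks. The labels do not say which insert the Control plasmid carried, which cells of the muscle took the plasmid up, or whether each library came from its own mouse, so p-values measure only the spread between these libraries.

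In an uninjured muscle, satellite cells lie between the fibre and its basal lamina and do not divide. Injury wakes them, they proliferate as myoblasts, most of them fuse into new fibres, and a part returns to rest under the lamina. PAX7 is the transcription factor that defines and maintains these cells, and PAX3 is its relative, used in the embryo and kept in the satellite cells of some muscles. CALCR, the calcitonin receptor, and SPRY1, an inhibitor of growth factor signalling through receptor tyrosine kinases, serve the quiescent state. SDC4, VCAM1, NCAM1 and MEGF10 are proteins of the cell surface, and CHRDL2 is a secreted antagonist of bone morphogenetic proteins (BMPs). Several of these genes are also used by other cells of a regenerating muscle, among them endothelium, leukocytes, Schwann cells and young fibres. In a whole muscle, fewer cells of a type and less RNA per cell cannot be told apart.

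The reads in genes ranged from 20725423 to 22179456 in the L7 libraries and from 19420012 to 24663153 in the Control libraries. L7 replicate 3 stood apart: its correlation over genes with the others was 0.920 to 0.951, against 0.979 to 0.989 among the others. It carried more adult fibre RNA, with a summed level of 8 adult fast fibre markers of 61080 FPKM (fragments per kilobase, adjusted for the depth of each library), against 20980 and 22720 FPKM in L7 replicates 1 and 2 and 15670 to 20310 FPKM in the Control libraries. Its 10 most read genes held 14.1% of all reads and mitochondrial genes 4.20%, against 6.57% to 8.40% and 1.85% to 2.51% in the other 5 libraries. Median of ratios scaling, which sets each library by its typical gene, gave a factor of 0.776 for L7 replicate 3 and 1.03 to 1.10 for the rest. With it, the median log2 difference over the 14788 genes tested was -0.0029, against -0.15 without it. Y-linked transcripts were present in L7 replicate 1 and in Control replicates 1 and 3 and absent in the others, apart from 2 reads in L7 replicate 3. Gm20544, a non-coding transcript annotated next to Smad7, was at 10.7, 15.7 and 5.47 FPKM in the L7 libraries, against 1.87, 2.54 and 1.70 FPKM in the Control libraries. The labels do not say whether it is the RNA that the plasmid supplied.

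MicroRNAs bind messenger RNAs through their seed, bases 2 to 8, and the study's title names miR-125b. The mature sequences of 3 mouse microRNAs from RefSeq (GRCm38.p6) are shown with the seed in capitals, because each has a link to the study or to these genes. The locus of miR-489 lies in an intron of Calcr, in the orientation of the gene, at chr6:3721922-3721944, and this microRNA is known for holding satellite cells at rest. The muscle microRNA miR-206 is known for acting on Pax7 and Pax3 and was added after the data had been seen.
mmu-miR-125b-5p: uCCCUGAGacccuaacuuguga
mmu-miR-489-3p: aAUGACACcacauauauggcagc
mmu-miR-206-3p: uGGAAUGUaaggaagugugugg
The letters that pair with the miR-125b seed, CTCAGGG, were in the longest annotated 3′ UTR of 0 of the 9 genes, against 13.1% of 21037 mouse genes with a 3′ UTR and 15.6% of the genes tested. The miR-489 letters, GTGTCAT, were in 1 of the 9, Megf10, against 9.17% of all these genes. The miR-206 letters, ACATTCC, were in 3 of the 9 genes, with 4 copies in Pax7, 2 in Pax3 and 1 in Ncam1, against 10.1% of all these genes. Because miR-206 was added for its known action on Pax7 and Pax3, that count does not measure enrichment. UTR length was not taken into account. The miR-206 sites are printed 5′ to 3′ on the strand of the gene (minus in each, GRCm38), with the matched letters in capitals.
Pax7 chr4:139739204-139739228: tcagccagcaagACATTCCtagaga
Pax7 chr4:139738785-139738809: gcatcctcctccACATTCCttgctc
Pax7 chr4:139738661-139738685: gccaagggagcaACATTCCaacgct
Pax7 chr4:139737323-139737347: ctgtgctgacgaACATTCCttcttc
Pax3 chr1:78102467-78102491: aaagaagctaaaACATTCCgtgtgt
Pax3 chr1:78101475-78101499: gtaggcacaaatACATTCCctttag
Ncam1 chr9:49505282-49505306: gcacacacaaacACATTCCtctagt
A match of letters is not a tested site, and mature microRNAs were not measured in these poly-A selected libraries.

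The levels of the 9 genes spanned a wide range, with transcripts of surface proteins at the top. Sdc4 had a mean of 59.3 FPKM over the 6 libraries, Ncam1 39.8 FPKM and Vcam1 35.6 FPKM. These 3 genes did not separate from each other by their ranges, although Sdc4 was above Ncam1 in 6 of 6 libraries and Ncam1 above Vcam1 in 5 of 6. Spry1 followed at 13.1 FPKM, below the lowest value of the 3 surface genes in every library. Megf10, at 4.41 FPKM, and Pax7, at 3.43 FPKM, overlapped in range and lay apart from Spry1. Chrdl2 came next at 1.18 FPKM, and Calcr (0.145 FPKM) and Pax3 (0.120 FPKM) were at the bottom, overlapping each other.

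**Figure D1:**
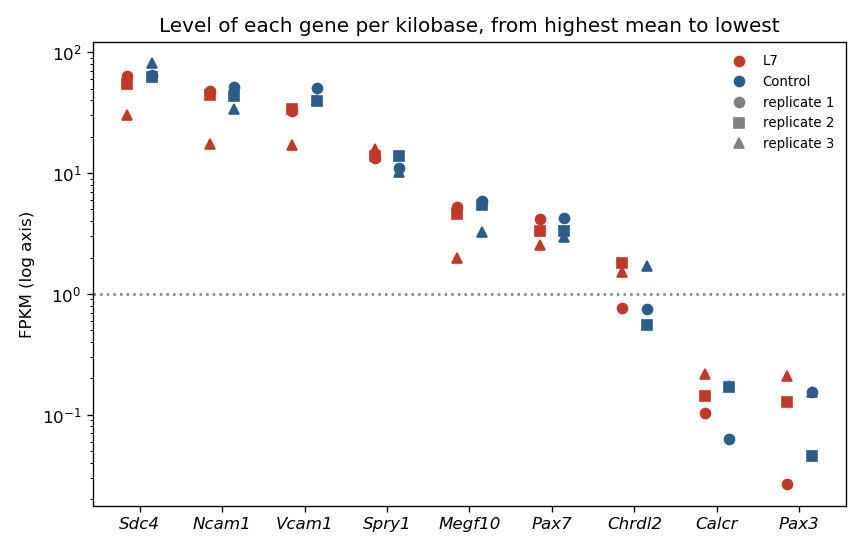
FPKM of the 9 genes on a log axis, ordered by their mean over the 6 libraries, with L7 libraries (red) left of Control libraries (blue) and the symbol giving the replicate number. The dotted line marks the mean of 1 FPKM that a gene needed for the test. The genes fall into steps, from Sdc4, Ncam1 and Vcam1 at the top to Calcr and Pax3 at the bottom, and L7 replicate 3 is the lowest point of 5 genes.

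Between L7 and Control, 0 of the 9 genes passed the test over all genes. The test was limma on log2(FPKM + 1), a scale that understates the change of low genes, with p-values adjusted by Benjamini-Hochberg over all genes and called at 0.05. It called 0 of 14788 genes (0%), and 873 genes had an unadjusted p under 0.05. The authors' deposited table marked 0 of the 9 as significant, against 1.13% of all genes listed, and gave 0 of them an adjusted p under 0.05, against 0.0284%. Voom on the recovered reads also called 0 genes, with 832 at an unadjusted p under 0.05. Of the 9 genes, 7 had a mean of at least 1 FPKM and entered the test. The log2 difference was positive in 2 of them and negative in 5, with a median of -0.29. Over all genes tested, 70.8% had a negative difference and the median was -0.15. Without L7 replicate 3, 6217 genes were higher and 8632 lower in L7 (median -0.03). With median of ratios scaling, 7330 were higher and 7458 lower (median -0.0029). L7 replicate 3 was the lowest library for 5 of the 9 genes, all of them tested, against 63.2% of all genes tested. It was the highest for 3, against 17.6% of all genes tested. Of these 3 only Spry1 was tested, and Pax3 and Calcr were below the filter, so that share is not a like comparison. After median of ratios scaling it was the lowest for 4 of the 9, and the share of all genes at that setting was not counted.

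**Figure D2:**
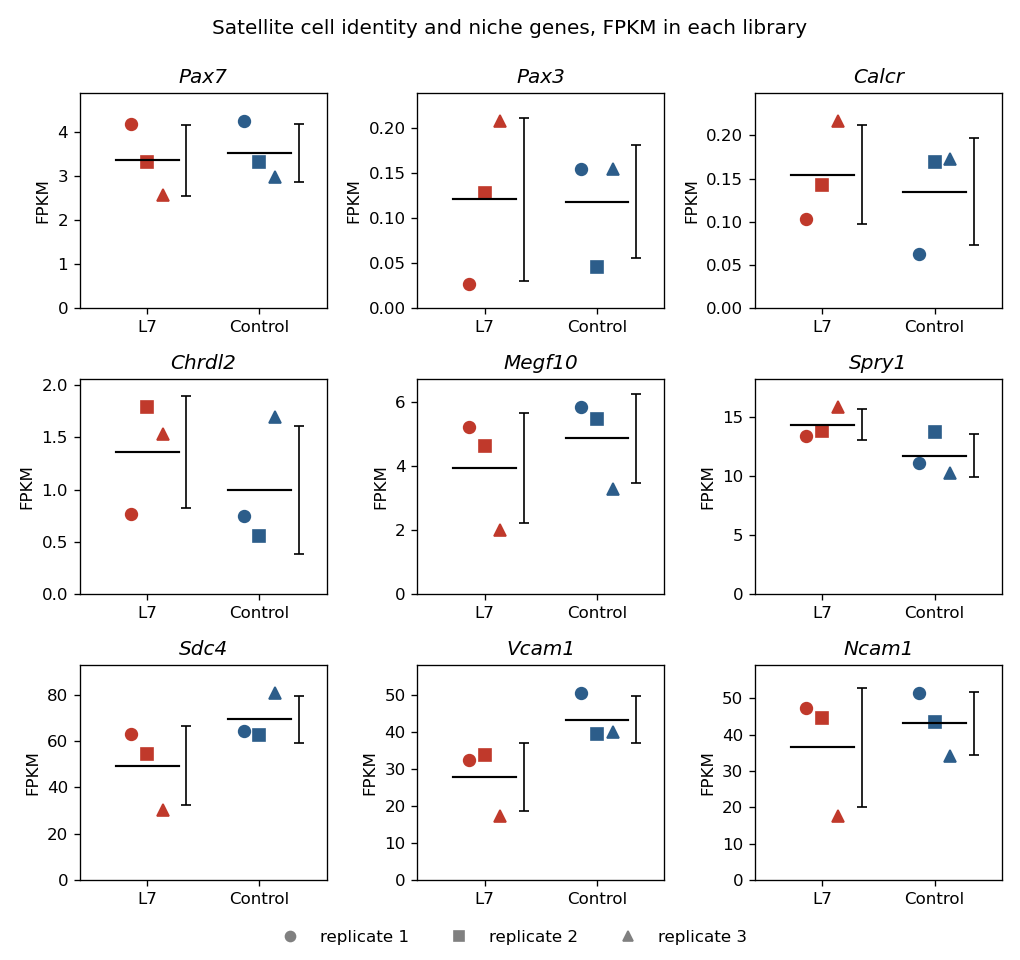
FPKM of each gene in every library, L7 (red) left of Control (blue), with the replicate number as symbol, the group mean as a horizontal line and its SD as a bar beside it (n = 3 each). Each panel has its own linear axis from 0. In the Vcam1 panel every L7 point lies below every Control point, and in the other 8 panels the groups overlap.

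Pax7 (chr4:139737062-139833528 in mm10, minus strand) was at 4.18, 3.31 and 2.57 FPKM in L7 replicates 1 to 3, against 4.24, 3.32 and 2.97 FPKM in Control replicates 1 to 3. The groups overlapped almost completely. These values rested on 206 to 351 reads per library in L7 and 244 to 336 in Control. The group means were 3.35 ± 0.81 FPKM in L7 and 3.51 ± 0.66 FPKM in Control (SD, n = 3 each), a log2 difference of -0.06 ± 0.20 (SE). The 95% interval of that difference ran from -0.53 to 0.41, and its adjusted p in limma was 0.885. Its sign was not stable: the difference was 0.07 with median of ratios scaling and 0.08 without L7 replicate 3. Pax7 thus differed between the groups by less than the spread between libraries.

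Pax3 (chr1:78101267-78197134, minus strand) was close to the limit of detection. It had 2, 9 and 15 reads in the L7 libraries, or 0.0265, 0.128 and 0.208 FPKM. The Control libraries held 11, 3 and 13 reads, or 0.155, 0.0454 and 0.155 FPKM. The summed reads were 26 in L7 and 27 in Control, a depth-adjusted ratio of 0.976 with a 95% interval of 0.547 to 1.74 (exact Clopper-Pearson, counting error only). A difference within that interval could not be told from counting error, and the spread between libraries is not in it. In a fit without the filter on low values its log2 difference was 0.0015 ± 0.073 (SE), with an adjusted p in limma of 0.999.

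Both PAX proteins work through shared partners and targets, and 10 such genes were read beside them. Of these 10, 3 were higher and 7 lower in L7, with a median log2 difference of -0.18, and 0 passed limma. The counts were 5 higher and 5 lower both without L7 replicate 3 (median -0.01) and with median of ratios scaling (median -0.02). Myod1, the myogenic determination factor of activated satellite cells, averaged 53.0 ± 19.7 FPKM in L7 and 60.8 ± 12.3 FPKM in Control (SD, n = 3 each). Carm1, the arginine methyltransferase that binds PAX7, averaged 34.0 ± 1.28 FPKM in L7 and 33.4 ± 3.27 FPKM in Control. Myf5, a direct target of PAX7, averaged 3.68 ± 0.92 FPKM in L7 and 4.94 ± 2.07 FPKM in Control. In each of these 3 genes the groups overlapped, and Myf5 was named after its values had been seen.

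Calcr (chr6:3685680-3764714, minus strand) marks quiescent satellite cells and is switched off when they activate. It was near the bottom of the range, with 7, 9 and 14 reads in L7 (0.104, 0.143 and 0.217 FPKM) and 4, 10 and 13 reads in Control (0.0628, 0.169 and 0.173 FPKM). The groups overlapped. The summed reads were 30 in L7 and 27 in Control, a depth-adjusted ratio of 1.13 with an interval of 0.647 to 1.97 (exact, counting error only). The fit without the filter gave a log2 difference of 0.02 ± 0.060 (SE) and an adjusted p in limma of 0.876.

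Collagen V is known in mouse satellite cells as a ligand of CALCR, and its 3 chains were far more abundant than the receptor. Col5a2 was at 459, 505 and 264 FPKM in L7 and at 579, 646 and 372 FPKM in Control. Col5a1 averaged 331 ± 102 FPKM in L7 and 376 ± 122 FPKM in Control (SD, n = 3 each), and Col5a3 averaged 85.4 ± 11.2 FPKM in L7 and 94.9 ± 38.5 FPKM in Control. The groups overlapped for each chain. Of the 8 genes of this list, which also holds the receptor activity modifying proteins and the calcitonin family ligands, 6 were tested, 2 were higher and 4 lower in L7, and 0 passed limma. Their median log2 difference was -0.13, and -0.12 without L7 replicate 3, while median of ratios scaling gave 3 higher and 3 lower with a median of 0.05. The ligand genes Calca and Calcb were both below the filter.

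Spry1 (chr3:37639947-37644598, plus strand), the feedback inhibitor of fibroblast growth factor (FGF) signalling that returns satellite cells to rest, was 1 of the 2 tested genes, with Chrdl2, that had a positive difference. It was at 13.4, 13.8 and 15.9 FPKM in L7 and at 11.1, 13.8 and 10.3 FPKM in Control. L7 replicate 3 was highest and Control replicates 1 and 3 lowest, while L7 replicates 1 and 2 and Control replicate 2 lay within a narrow band. The means were 14.4 ± 1.31 FPKM in L7 and 11.7 ± 1.82 FPKM in Control (SD, n = 3 each). The log2 difference was 0.28 ± 0.16 (SE), with an adjusted p in limma of 0.580 and an exact two-sided permutation p of 0.2, where 3 against 3 libraries cannot go below 0.1. The difference was 0.44 with median of ratios scaling and 0.21 without L7 replicate 3. The authors' deposited table gives a fold of 1.41, L7 over Control, with an unadjusted p of 0.118. An unnamed transcript on the opposite strand, Gm42922, overlaps an exon of Spry1 at a mean of 0.201 FPKM, and reads of the pair cannot be told apart without strand.

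The counts of higher and lower genes around Spry1 shifted with the scaling, as they did over all genes tested. The median of all genes tested was -0.15, against -0.03 without L7 replicate 3 and -0.0029 with median of ratios scaling. Of 17 FGF ligands, receptors, Sprouty and Spred inhibitors and targets, 15 were tested, 3 were higher and 12 lower in L7, and 0 passed limma. Their median log2 difference was -0.12, against 0.01 without L7 replicate 3, where 8 were higher and 7 lower, and 0.02 with median of ratios scaling, where 9 were higher and 6 lower. Fgfr1, the most abundant receptor of the list, averaged 98.7 ± 16.0 FPKM in L7 and 110.6 ± 20.2 FPKM in Control (SD, n = 3 each). Fgfr4, the receptor typical of myoblasts, averaged 40.4 ± 10.8 FPKM in L7 and 41.1 ± 5.26 FPKM in Control. Dusp6, a phosphatase induced by FGF signalling, averaged 37.0 ± 8.83 FPKM in L7 and 39.9 ± 5.84 FPKM in Control. The groups overlapped in all 3 of these genes. Spry2, the relative of Spry1, averaged 11.3 ± 0.69 FPKM in L7 and 11.6 ± 0.61 FPKM in Control and was named after its values had been seen.

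Sdc4 (chr2:164424247-164443887, minus strand) encodes syndecan-4, a heparan sulfate proteoglycan that serves as a co-receptor for growth factors, fibronectin and WNT7A. It was at 63.0, 54.6 and 30.4 FPKM in L7 and at 64.4, 62.8 and 80.8 FPKM in Control. L7 replicate 3 was the lowest library and Control replicate 3 the highest, and the other 4 lay close together, with L7 replicate 1 just above Control replicate 2. The means were 49.4 ± 17.0 FPKM in L7 and 69.3 ± 10.0 FPKM in Control (SD, n = 3 each). The log2 difference of -0.54 ± 0.27 (SE) had an unadjusted p of 0.0899 and an adjusted p of 0.580 in limma. It was -0.37 with median of ratios scaling and -0.23 without L7 replicate 3. The authors' deposited table gives a fold of 0.778, L7 over Control, with an unadjusted p of 0.244.

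Sdc4 and Vcam1 had the lowest differences, and Vcam1 is a classic target of NF-kB. After these values had been seen, the RefSeq promoter of Sdc4 was chosen to be shown with the NF-kB motif. It spans the start given by RefSeq, which lies within the GENCODE span of the gene given above, on the minus strand of chr2:164443139-164443438 (GRCm38.p6), with the match to the NF-kB motif in capitals, searched as GGG and TTCC separated by any 3 bases.
Sdc4 promoter: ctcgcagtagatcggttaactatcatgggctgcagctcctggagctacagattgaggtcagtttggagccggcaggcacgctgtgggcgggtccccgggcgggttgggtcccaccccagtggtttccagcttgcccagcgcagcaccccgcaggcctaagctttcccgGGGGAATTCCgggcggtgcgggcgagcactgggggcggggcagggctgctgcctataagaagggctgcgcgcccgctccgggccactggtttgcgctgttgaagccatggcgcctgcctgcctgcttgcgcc
The motif was searched on both strands, occurs once here and occurs in 5.56% of 32851 promoters of the same length. The promoters listed for Pax7, Spry1 and Calcr held no match, and those of Vcam1 and of the remaining genes of the set were not analysed here. A match is not evidence of binding, and the part of NF-kB in the Sdc4 and Vcam1 values was not tested.

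Of 10 syndecans, ligands and co-receptors around SDC4, 9 were tested, 2 were higher and 7 lower in L7, and 0 passed limma. Their median log2 difference was -0.41, against -0.06 without L7 replicate 3 (1 higher, 8 lower) and -0.23 with median of ratios scaling (3 higher, 6 lower). Sdc3, the other syndecan of satellite cells, was at 451, 358 and 195 FPKM in L7 and at 383, 395 and 489 FPKM in Control. Fn1, the matrix protein fibronectin that satellite cells deposit in their niche, averaged 476 ± 177 FPKM in L7 and 581 ± 160 FPKM in Control (SD, n = 3 each). Tnc, tenascin-C, averaged 90.2 ± 62.4 FPKM in L7 and 169 ± 75.8 FPKM in Control. In all 3 the groups overlapped and L7 replicate 3 was the lowest library. Fzd7, the receptor that pairs with SDC4, averaged 11.2 ± 1.11 FPKM in L7 and 11.1 ± 0.73 FPKM in Control and was named after its values had been seen.

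Vcam1 (chr3:116109949-116129688, minus strand) was the gene of the 9 whose groups did not overlap. It encodes an adhesion protein that satellite cells carry and that binds the leukocyte integrin of ITGA4 and ITGB1. Its level was 32.5, 33.7 and 17.2 FPKM in L7, against 50.7, 39.5 and 40.1 FPKM in Control. L7 replicates 1 and 2 lay close together, below the lowest Control value, and L7 replicate 3 was far below both. The means were 27.8 ± 9.21 FPKM in L7 and 43.4 ± 6.28 FPKM in Control (SD, n = 3 each), a ratio of 0.640. The log2 difference of -0.67 ± 0.27 (SE) had an unadjusted p of 0.0379 and an adjusted p of 0.580 in limma, so it did not pass. Vcam1 was also the only one of the 9 genes with an unadjusted p under 0.05, where 4.25% of all genes tested were below that p and lower in L7 and 1.65% were below it and higher. The exact two-sided permutation p was 0.1, the smallest that 3 against 3 libraries can give.

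Every L7 value below every Control value was a common pattern in these libraries, held by 13.7% of all genes tested. For Vcam1 it was also present with median of ratios scaling, where 8.87% of all genes showed it, and without L7 replicate 3, where 15% did. The reverse pattern, every L7 value above every Control value, was shown by 0 of the 9 genes in any of these settings, against 5.49% of all genes with all 6 libraries, 9.41% with median of ratios scaling and 9.9% without L7 replicate 3. With median of ratios scaling the values were 31.2, 32.7 and 22.2 in L7 and 46.1, 37.3 and 38.9 in Control, and the log2 difference was -0.50. Without L7 replicate 3 it was -0.37. The authors' deposited table gives a fold of 0.704, L7 over Control, with an unadjusted p of 0.103 and an adjusted p of 1. An antisense gene, Gm43109, overlaps an exon of Vcam1 at a mean of 0.0832 FPKM.

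Beside VCAM1 stand its integrin ligands, related adhesion molecules and NF-kB genes. Of these 8 genes, 7 were tested, 0 were higher and 7 lower in L7, against 70.8% lower among all genes tested, and 0 passed limma. Their median log2 difference was -0.36. Without L7 replicate 3 it was -0.11, with 1 gene higher and 6 lower, and with median of ratios scaling it was -0.18 with 7 lower. All genes tested gave 6217 higher and 8632 lower without L7 replicate 3, and 7330 higher and 7458 lower with that scaling. Itgb1, the integrin beta chain, averaged 275 ± 70.7 FPKM in L7 and 346 ± 51.5 FPKM in Control (SD, n = 3 each). Nfkbia, the inhibitor that NF-kB itself induces, was at 110.6, 98.6 and 61.6 FPKM in L7 and at 118, 107 and 163 FPKM in Control. Nfkb1, a subunit of NF-kB, averaged 38.0 ± 9.82 FPKM in L7 and 47.2 ± 5.41 FPKM in Control. The groups overlapped in each of these 3 genes.

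Vcam1 is also made by activated endothelium, mesenchymal cells and macrophages, so their markers were read beside it. Of 9 endothelial markers, 4 were higher and 5 lower in L7, with a median log2 difference of -0.0032 and groups that overlapped for all 9. These counts became 2 higher and 7 lower without L7 replicate 3 (median -0.10), and all 9 higher with median of ratios scaling (median 0.15). The medians of all genes tested in these settings were -0.03 and -0.0029. The summed level of the endothelial markers was 308 to 352 FPKM in L7 and 292 to 356 FPKM in Control. Of 8 fibro-adipogenic progenitor markers, 3 were higher and 5 lower, or 1 higher and 7 lower without L7 replicate 3 (median -0.10) and 5 higher and 3 lower with median of ratios scaling (median 0.10). Their summed level was 1236 to 1288 FPKM in L7 and 1471 to 1752 FPKM in Control. That sum was carried mostly by Ly6a, the SCA1 antigen, whose L7 values were all below its Control values, as in 13.7% of all genes tested. Of 9 macrophage markers, 1 was higher and 8 lower, with a summed level of 1720 to 3753 FPKM in L7 and 2464 to 3456 FPKM in Control; without L7 replicate 3, 8 were higher and 1 lower, and with median of ratios scaling 4 were higher and 5 lower. No defining marker of these lists was at 0. The part of these cells in the Vcam1 difference was not tested.

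Ncam1 (chr9:49502136-49798925, minus strand) encodes the neural cell adhesion molecule CD56, made by satellite cells, myoblasts, young or denervated fibres and Schwann cells. It was at 47.4, 44.5 and 17.5 FPKM in L7 and at 51.5, 43.5 and 34.3 FPKM in Control. L7 replicate 3 was far below the other 5 libraries, and L7 replicates 1 and 2 lay within the Control range. The means were 36.5 ± 16.5 FPKM in L7 and 43.1 ± 8.64 FPKM in Control (SD, n = 3 each). The log2 difference of -0.34 ± 0.37 (SE) had an adjusted p in limma of 0.657. The difference was -0.17 with median of ratios scaling and 0.11 without L7 replicate 3. The antisense gene Gm11149 overlaps an exon of Ncam1 at a mean of 0.192 FPKM.

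The partners of NCAM1 had lower levels than Ncam1 itself. Of 7 polysialyltransferases, relatives and ligands, 5 were tested, 0 were higher and 5 lower in L7, with a median log2 difference of -0.30, and 0 passed limma. Leaving out L7 replicate 3 gave 2 higher and 3 lower, with a median of -0.15, and median of ratios scaling gave 1 higher and 4 lower, with a median of -0.21. Gfra1, the receptor that shares NCAM1 as a partner for GDNF, was at 13.3, 14.4 and 7.53 FPKM in L7 and at 16.4, 14.5 and 15.6 FPKM in Control. Every L7 value was below every Control value, as in 13.7% of all genes tested, although the groups overlapped with median of ratios scaling. St8sia2, which adds polysialic acid to NCAM1 in development and regeneration, averaged 2.81 ± 1.66 FPKM in L7 and 3.66 ± 1.66 FPKM in Control (SD, n = 3 each). L1cam, a related adhesion molecule, averaged 2.47 ± 0.45 FPKM in L7 and 3.16 ± 0.57 FPKM in Control.

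Of the other sources of Ncam1, L7 replicate 3 had low levels of regenerating fibre markers and high levels of Schwann cell markers. Of 8 genes of differentiating myoblasts and of regenerating or denervated fibres, among them Myog, Myh3 and Chrng, 1 was higher and 7 lower in L7. Their summed level was 1455, 1372 and 628 FPKM in L7 and 1294, 1153 and 941 FPKM in Control, and the counts were 6 higher and 2 lower without L7 replicate 3 and 3 higher and 5 lower with median of ratios scaling. Of 7 Schwann cell markers, 5 were tested and all 5 were higher in L7, with a summed level of 73.3, 70.6 and 122 FPKM in L7 and 64.3 to 68.3 FPKM in Control. The part of these cells in the Ncam1 values was not tested.

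Megf10 (chr18:57133090-57297467, plus strand) encodes a surface receptor with repeats like those of epidermal growth factor, known in mouse for keeping satellite cells proliferating and for working with Notch. It was at 5.23, 4.62 and 2.00 FPKM in L7 and at 5.86, 5.47 and 3.28 FPKM in Control. Replicate 3 was the lowest library of each group, and the groups overlapped. The means were 3.95 ± 1.72 FPKM in L7 and 4.87 ± 1.39 FPKM in Control (SD, n = 3 each). The log2 difference of -0.29 ± 0.32 (SE) had an adjusted p in limma of 0.661. The difference was -0.16 with median of ratios scaling and 0.04 without L7 replicate 3.

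Of 9 relatives and Notch partners of MEGF10, 8 were tested, 1 was higher and 7 lower in L7, with a median log2 difference of -0.18, and 0 passed limma. The counts without L7 replicate 3 were 5 higher and 3 lower, with a median of 0.03, and with median of ratios scaling 4 higher and 4 lower, with a median of -0.02. Notch1, whose signal keeps satellite cells undifferentiated, was at 48.4, 49.8 and 26.1 FPKM in L7 and at 49.8, 45.1 and 56.9 FPKM in Control. Notch2 averaged 18.4 ± 7.43 FPKM in L7 and 22.5 ± 1.56 FPKM in Control (SD, n = 3 each), and Megf6 averaged 18.5 ± 11.1 FPKM in L7 and 18.2 ± 0.83 FPKM in Control. L7 replicate 3 was the lowest library for all 3.

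Chrdl2 (chr7:100006172-100034728, plus strand) is a secreted chordin-like protein that binds BMPs, and it was the gene with the fewest reads among the 7 tested. It was at 0.762, 1.79 and 1.53 FPKM in L7 and at 0.744, 0.557 and 1.70 FPKM in Control, from 16 to 62 reads. Values fell into a low band, with L7 replicate 1 and Control replicates 1 and 2, and a high band, with L7 replicates 2 and 3 and Control replicate 3. The groups overlapped. The means were 1.36 ± 0.54 FPKM in L7 and 1.00 ± 0.61 FPKM in Control (SD, n = 3 each), and the log2 difference of 0.26 ± 0.28 (SE) had an adjusted p in limma of 0.651. The authors' deposited table gives a fold of 1.56, L7 over Control, with an unadjusted p of 0.419.

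Of 18 BMP ligands, receptors, antagonists and targets, 16 were tested, 5 were higher and 11 lower in L7, with a median log2 difference of -0.17, and 0 passed limma. Leaving out L7 replicate 3 gave 7 higher and 9 lower, with a median of -0.04, and median of ratios scaling gave 8 higher and 8 lower, with a median of -0.0085. Id2, an inhibitor of differentiation induced by BMPs, was at 33.5, 32.4 and 17.0 FPKM in L7 and at 43.1, 33.8 and 46.5 FPKM in Control, with every L7 value below every Control value, although the groups overlapped with median of ratios scaling. Id3, a target of the same kind, averaged 74.3 ± 17.9 FPKM in L7 and 95.2 ± 11.9 FPKM in Control (SD, n = 3 each), and Bmpr1a, a type I receptor, averaged 23.8 ± 2.18 FPKM in L7 and 26.5 ± 4.79 FPKM in Control. The ligand Bmp2, named after its values had been seen, averaged 2.57 ± 1.21 FPKM in L7 and 5.82 ± 1.17 FPKM in Control. Bmp2 had every L7 value below every Control value. Its log2 difference of -0.98 ± 0.28 (SE) had an unadjusted p of 0.00875 and an adjusted p of 0.580 in limma, and without L7 replicate 3 it was -0.73. Other ligands, named likewise, had differences of the other sign. Bmp6 averaged 3.18 ± 1.18 FPKM in L7 and 1.85 ± 0.56 FPKM in Control (SD, n = 3 each), with every L7 value above every Control value, a log2 difference of 0.54 ± 0.25 (SE) and an adjusted p in limma of 0.580. Bmp4 averaged 4.23 ± 0.52 FPKM in L7 and 3.25 ± 0.68 FPKM in Control, with groups that overlapped. Bmp7, below the filter, averaged 0.431 ± 0.155 FPKM in L7 and 0.191 ± 0.077 FPKM in Control, with every L7 value above every Control value. Of the 16 genes tested in this list, 2 had every L7 value below every Control value, against 13.7% of all genes tested. The reverse held for 1 of them, against 5.49% of all genes tested.

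**Figure D3:**
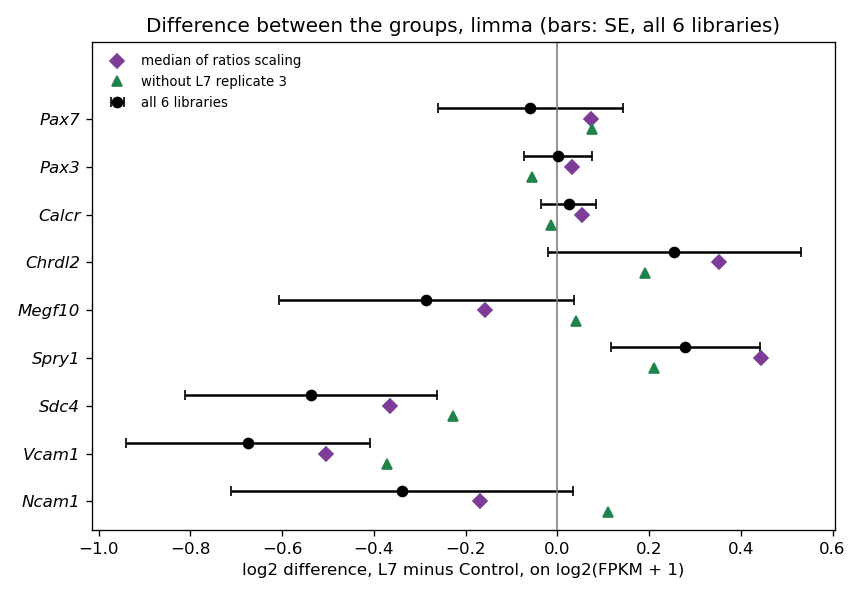
Log2 difference, L7 minus Control, of each gene on log2(FPKM + 1). Black circles with bars give the limma estimate and its SE over all 6 libraries, purple diamonds the estimate with median of ratios scaling and green triangles the estimate without L7 replicate 3. Vcam1 and Sdc4 are below 0 and Spry1 and Chrdl2 above 0 in all 3 settings, while Pax7, Pax3, Calcr, Megf10 and Ncam1 change sign in at least 1.

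Other markers of satellite cells gave a mixed picture. Of 18 such genes, 7 were higher and 11 lower in L7, with a median log2 difference of -0.05, and 0 passed limma. The direction turned without L7 replicate 3, with 11 higher and 7 lower (median 0.05), and with median of ratios scaling, with 12 higher and 6 lower (median 0.11). The median of all genes tested also rose, from -0.15 to -0.03 and -0.0029 in these settings. Cdh15, the M-cadherin that joins the satellite cell to its fibre, averaged 19.0 ± 2.69 FPKM in L7 and 19.9 ± 0.52 FPKM in Control (SD, n = 3 each) and was named after its values had been seen. Itga7, the laminin receptor of satellite cells and fibres, averaged 139 ± 14.6 FPKM in L7 and 130.4 ± 12.6 FPKM in Control. Des, the muscle intermediate filament desmin, was at 1787, 2014 and 2903 FPKM in L7 and at 1090, 1445 and 1670 FPKM in Control. Des is also a gene of the fibres, and all 8 adult fast fibre markers were higher in L7, with a median log2 difference of 0.92, 0.32 without L7 replicate 3 and 1.10 with median of ratios scaling. Of 6 cell cycle genes, 0 were higher and 6 lower, with a median of -0.58, -0.09 without L7 replicate 3 and -0.43 with median of ratios scaling. The part of fibre RNA in the values of the satellite cell genes was not tested.

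**Figure D4:**
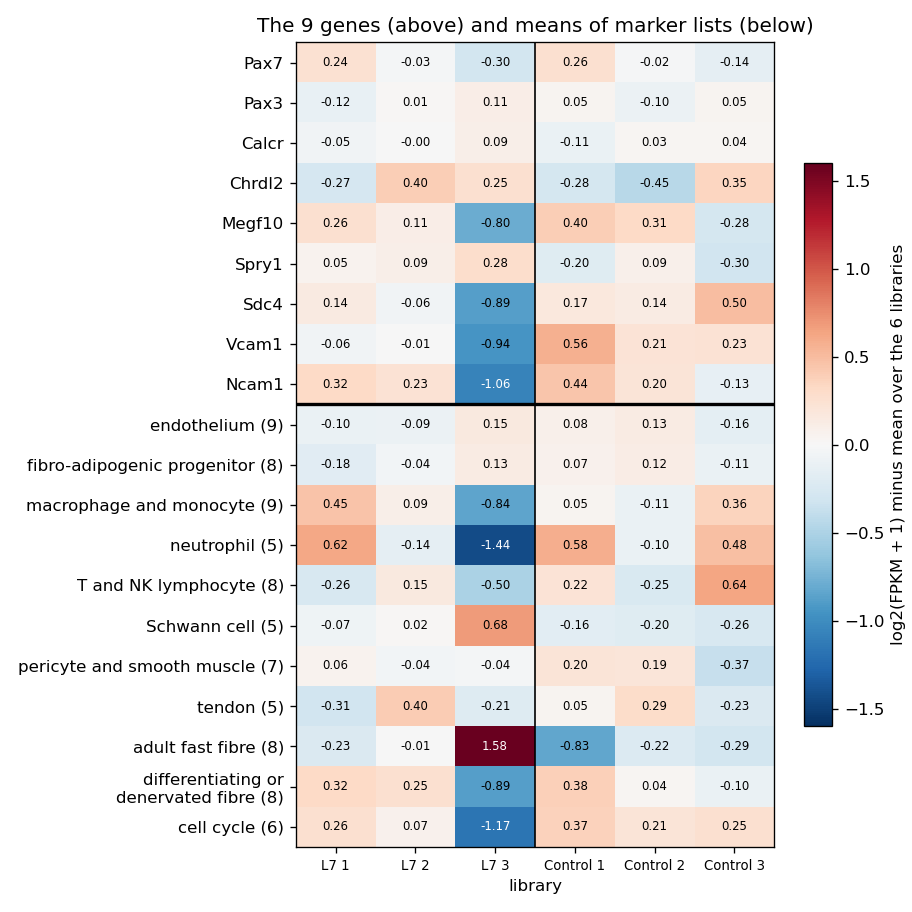
Each cell gives log2(FPKM + 1) minus its mean over the 6 libraries, for the 9 genes (above the line) and as the mean over the tested genes of each marker list (below it, number of genes in parentheses), with L7 libraries left of Control libraries. Ncam1, Vcam1, Sdc4 and Megf10 are low in L7 replicate 3, the library in which adult fast fibre markers are high and cell cycle, neutrophil and macrophage markers low.

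The genes whose profile over the 6 libraries was most like each of the 7 genes tested were found by the root mean square distance between centred log2(FPKM + 1) profiles, a description with no test. For Vcam1 they were Eif1a (distance 0.032), Zc3h7a and Il13ra1, and 50 genes lay within 0.1. For Sdc4 they were the cytoplasmic actin gene Actb (0.032), Clic1 and Plekhf2, with 127 genes within 0.1. For Ncam1 they were Slc25a24 (0.051), the N-cadherin gene Cdh2 and the mitotic kinesin gene Kif14, with 21 within 0.1. For Megf10 they were Slc38a6 (0.026), Fmnl3 and Ttc3, with 41 within 0.1. Pax7 was closest to Pot1a (0.027), Rpl14-ps1 and Scoc, with 174 within 0.1, and Spry1 to Dab2ip (0.033), Tns1 and Cry2, with 150 within 0.1. Chrdl2 had 0 genes within 0.1, and its nearest was Nfasc at 0.10. No gene of the 9 was among the 3 nearest of another.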

How the data were processed

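RNA was measured by sequencing of poly-A selected libraries made with NEBNext Ultra RNA from 3 µg of RNA, per the labels' protocols, in 3 L7 and 3 Control libraries. The authors deposited FPKM values, 1 per gene and library, for 52369 genes. The submitters' processing notes name the build mm10 and, without their roles, DESeq 1.12.0, HISAT2 2.0.4, TopHat2 2.0.12 and Bowtie2 2.2.3. The sources used here do not give the counting program, its strand setting or the annotation. Another deposited table sets L7 against Control and has, per the file headers, p-values with and without adjustment, the log2 fold change and, for each group, the authors' mean normalised signal (reads over size factors). It marks 359 of 31690 genes (1.13%) as significant, none of them among the 9 genes, and 9 genes (0.0284%) have an adjusted p under 0.05.

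Symbols and coordinates came from GENCODE M21 and matched 51633 genes. Whole reads were recovered from the FPKM steps and the authors' group means: 152096 of 152096 values above 0 (100.0%) were within 0.05 of a whole number. These reads give the depth and the read numbers. In R 4.3.3, limma 3.58.1 tested log2(FPKM + 1), two-sided and with its trend option, in the 14788 genes whose mean reached 1 FPKM, and p-values were adjusted by Benjamini-Hochberg and called at 0.05. Single genes also had an exact permutation test. The limma step was tested on simulated data. Tables and figures used Python 3.11.15, pandas 2.3.3, numpy 2.4.6 and matplotlib 3.10.9.

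The 9 genes and the lists of partners and markers were chosen with earlier results of these data known. The text names the 9 genes, up to 3 partners of highest mean FPKM per list and the 3 genes nearest in profile; other genes named with values were chosen after their values were seen, and 1 gene that the rule takes is not reported here. Alternatives were other pseudocounts, filters and scalings, a replicate block, array weights, a sex covariate, voom on the recovered reads and leaving out each library. Counts without L7 replicate 3 and with median of ratios scaling for non-overlap and for the lists were chosen after seeing the data.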

Additional observations from a re-analysis of the deposited data

How the results depend on the processing

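Under all 17 alternatives run (16 for Pax3 and Calcr), 0 of the 9 genes passed limma, and Vcam1 and Sdc4 had a negative and Spry1 and Chrdl2 a positive log2 difference. Vcam1 ranged from -0.84 to -0.34, with adjusted p from 0.387 to 0.873. Leaving out each library in turn gave ranges of -0.19 to 0.0763 for Pax7, -0.0543 to 0.0632 for Pax3, -0.0219 to 0.0566 for Calcr, -0.50 to 0.0411 for Megf10 and -0.58 to 0.11 for Ncam1. Pax7 was positive with median of ratios scaling (0.0735), quantile normalization (0.0777) and the sex covariate (0.0214). Pax3 was negative with a pseudocount of 0.1 (-0.0299), array weights (-0.0146), the sex covariate (-0.0055) and voom (-0.22), and Calcr with the sex covariate (-0.0022). Without L7 replicate 3 and with median of ratios scaling together, the differences were 0.10 for Pax7, -0.0485 for Pax3, -0.0108 for Calcr, 0.0717 for Megf10 and 0.15 for Ncam1. The cause of these changes of sign was not tested. Over all genes, limma called 3 genes with array weights, whose estimate stopped before it converged, 1 gene without L7 replicate 3 with median of ratios scaling, and 0 to 1 genes when a library was left out, the 1 being without L7 replicate 1. Same-numbered libraries deviated from their group means with correlations of 0.322, -0.065 and 0.087, and different-numbered ones with -0.346 to 0.22. Not every library correlated best with its own number. So few values cannot decide whether the numbers pair the libraries, and the labels do not say. The limma fit with the replicate block called 0 genes, with 1178 at an unadjusted p under 0.05, against 873 without the block. Depth limits Pax3 and Calcr, with at most 15 reads per library.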
